A study of Mus musculus with 2 samples.

Results

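*Spp1*, which encodes osteopontin, was followed together with *Gpnmb* and with 3 genes of osteopontin receptors, *Cd44*, *Itgav* and *Itgb3*, in scRNA-seq of the injured mouse thalamus. Each gene was taken by its symbol in the deposited gene lists, where each symbol occurred on 1 row, so that 5 of the 33696 listed genes were described. The gene identifiers were ENSMUSG00000029304 (*Spp1*), ENSMUSG00000029816 (*Gpnmb*), ENSMUSG00000005087 (*Cd44*), ENSMUSG00000027087 (*Itgav*) and ENSMUSG00000020689 (*Itgb3*). The samples were thalamic cells sorted as positive for CD45, a surface protein of leukocytes and microglia, from C57B6/J mice. All mice had received a cortical ablation injury (CAI), in which cortical tissue is removed surgically and the thalamus reacts at a distance. There was 1 library from mice given control Ab, a normal rat IgG, and 1 from mice given anti-CD9 Ab, a rat antibody against the tetraspanin CD9. Both antibodies were delivered into the thalamus through implanted cannulas at 1.0 µg/µl, from day 7 to day 19 after injury, and cells were collected on day 21. The age of the mice in these libraries was not used here. There was no uninjured or uninjected library among these 2, so that all values describe injured and injected thalamus. The aim of the comparison was to learn how CD9 blockade altered thalamic microglial states after injury.

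Osteopontin is a secreted glycoprotein of macrophages, reactive microglia and bone that binds cells through an RGD (arginine-glycine-aspartate) site for αv integrins and through CD44. The integrin of the αv chain (*Itgav*) and the β3 chain (*Itgb3*) is its classical receptor on osteoclasts, while CD44 is better known as the leukocyte receptor for hyaluronan. GPNMB is a lysosomal and cell surface glycoprotein of macrophages and osteoclasts that is shed from the membrane, and *Gpnmb* and *Spp1* are both counted among the genes of damage-associated microglia and of lipid-loaded macrophages.

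The expression was counted as unique molecular identifiers (UMIs), where each UMI stands for a captured transcript, and is given as CPM (counts per 1000000 UMIs of the same cell class). The libraries held 38042608 UMIs in 12245 barcodes after control Ab and 40825201 UMIs in 15173 barcodes after anti-CD9 Ab, of which 7467 and 9162 cells passed the quality limits. Intervals are 95% intervals of counting error only (exact Poisson for CPM, exact binomial for shares), and a log2 ratio is that of CPM after anti-CD9 Ab over CPM after control Ab. No test could be run on 1 library per antibody, and the antibody, the pool of mice and the library cannot be told apart.

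Cells were named by class from marker genes, and neither the 5 genes nor known microglial state genes were used to form the clusters. The microglia-like class had 1891 cells after control Ab and 860 after anti-CD9 Ab, and all 12 of its markers were detected in both libraries. The macrophage-like class (monocytes and macrophages) had 192 and 1231 cells, where 1 of its 14 markers was at 0 in the control library and none in the other, and the neutrophil-like class 63 and 2611 cells. T cell-like cells numbered 2809 and 996. Astrocyte-like (429 and 79), oligodendrocyte-like (305 and 97) and mural cell or fibroblast-like cells (69 and 16) were also present in spite of the CD45 sort. Clusters that met no name held 18.7% of the kept cells after control Ab and 28.8% after anti-CD9 Ab, and they are given by number. There were 54 cell barcodes present in both libraries, 18 of them among kept cells.

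Promoter sequence is shown for *Spp1* and *Gpnmb*, because these were the genes lower in the same myeloid classes after anti-CD9 Ab. The 250 bases before each annotated start, written 5′ to 3′ on the gene's strand, were taken from RefSeq on GRCm38.p6, and both genes lie on the + strand. They span chr5:104434861-104435110 for the more upstream of the 2 annotated starts of *Spp1*, and chr6:49036268-49036517 for *Gpnmb*.
Spp1: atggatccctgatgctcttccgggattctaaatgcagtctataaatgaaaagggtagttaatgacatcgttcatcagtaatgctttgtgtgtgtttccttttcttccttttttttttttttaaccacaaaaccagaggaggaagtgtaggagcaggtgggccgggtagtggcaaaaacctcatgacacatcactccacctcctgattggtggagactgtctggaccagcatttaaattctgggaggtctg
Gpnmb: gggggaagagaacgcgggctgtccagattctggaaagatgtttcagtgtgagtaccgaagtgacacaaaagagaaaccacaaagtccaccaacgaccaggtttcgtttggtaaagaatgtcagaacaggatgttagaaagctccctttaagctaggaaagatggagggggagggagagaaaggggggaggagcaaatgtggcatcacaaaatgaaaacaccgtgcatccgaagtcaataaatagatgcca
On both strands of the full windows (250 bases before to 50 after the start) 3 motifs were searched: TCACGTG and TCATGTG, which are bound by factors of the MiT/TFE family such as MITF, and TGANTCA, which is bound by AP-1. The last 3 letters of TGANTCA are the first 3 of the other motifs, so that a stretch could match it and one of them. Of 32851 windows of the same length in 27025 genes, 3.77% held TCACGTG, 3.77% TCATGTG and 7.81% TGANTCA. The *Gpnmb* window held 1 match to TGANTCA, starting at base 9 after the annotated start, within chr6:49036516-49036542. The match is in capitals.
Gpnmb site: caggggcaagTGACTCAtgagcacgag
The windows of *Spp1* (2), *Cd44* and *Itgav* held no match to any of these letters. *Itgb3* had no window among them.

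*Spp1* was lower after anti-CD9 Ab in every named class and in every numbered cluster, although cluster 8 had only 3 cells after control Ab. In microglia-like cells it stood at 26943 CPM (26846 to 27040, 295431 UMIs) after control Ab and 6497 CPM (6409 to 6586, 20702 UMIs) after anti-CD9 Ab, with a log2 ratio of -2.05 (-2.07 to -2.03). This value was -0.59 when the libraries were clustered without integration, and lay between -2.13 and -1.87 under the 7 other alternatives. The summed level of the 12 microglia markers in the class was 14614 and 9086 CPM, 11 of them lower after anti-CD9 Ab, while 11 of the 14 macrophage markers were higher (2669 and 1986 CPM in sum), and their part in the microglial values was not tested. In macrophage-like cells the levels were 67816 CPM (67355 to 68278) and 1843 CPM (1811 to 1876), a log2 ratio of -5.20 (-5.23 to -5.17). The order of these classes was therefore exchanged, with macrophages above microglia in the control library and below them in the anti-CD9 library. The highest level in either library was in cluster 22 (57 and 43 cells), an unnamed cluster with 4 of 12 microglia markers and *Cxcl13* at its head. There *Spp1* reached 109718 CPM after control Ab and 29690 CPM after anti-CD9 Ab (log2 ratio -1.89, -1.95 to -1.83).

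**Figure D1:**
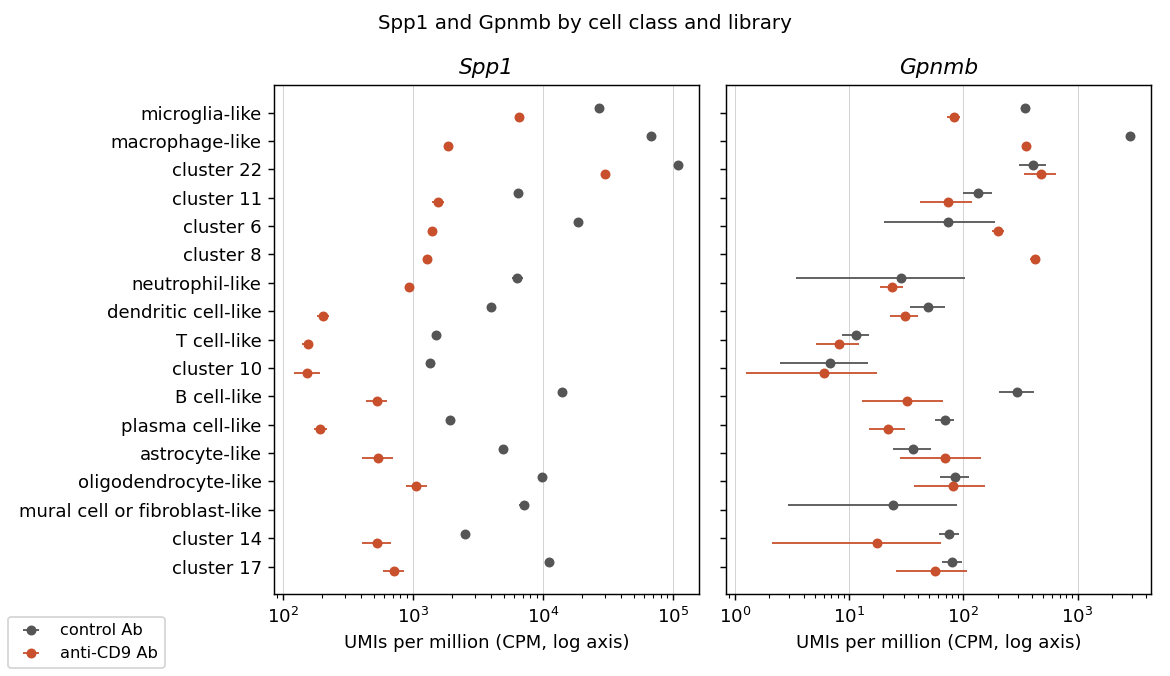
CPM (log axis) of *Spp1* (left) and *Gpnmb* (right) in each cell class or cluster, for libraries with at least 20 of its cells, after control Ab in grey and anti-CD9 Ab in orange; points are the summed UMIs of 1 library and bars 95% Poisson intervals. Where both libraries are drawn, the *Spp1* point of the anti-CD9 library lies to the left of the control point, whereas for *Gpnmb* microglia-like (344 and 82.2 CPM) and macrophage-like cells (2853 and 357 CPM) are apart and T cell-like cells (11.5 and 8.19 CPM) are not.

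Within microglia-like cells, *Spp1* differed between the clusters and was lower after anti-CD9 Ab in each. Cluster 3 (933 and 398 cells) held the most, at 39509 CPM after control Ab and 11455 CPM after anti-CD9 Ab (log2 ratio -1.79). Cluster 20 (72 and 58 cells) stood at 34879 and 7589 CPM (-2.20), and cluster 5 (886 and 404 cells) at 7696 and 750 CPM (-3.36). The microglial cluster with the least *Spp1* thus had the lowest log2 ratio of the 3.

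The difference between libraries in microglia-like cells lay in how many cells carried much *Spp1*. When each cell was thinned to 1000 UMIs, 37.0% (34.8 to 39.3%) of 1864 cells after control Ab and 10.8% (8.80 to 13.1%) of 841 cells after anti-CD9 Ab had 10 or more *Spp1* UMIs. Cells with no *Spp1* UMI made up 22.3% and 72.1%, respectively. The median cell had 3 *Spp1* UMIs after control Ab and 0 after anti-CD9 Ab. Among the cells with at least 1 UMI the mean was 24.3 after control Ab and 18.5 after anti-CD9 Ab. These means lay much closer together than the shares of cells. At the same depth, 62.6% of T cell-like cells after control Ab and 13.5% after anti-CD9 Ab also had a *Spp1* UMI. The part of RNA from other cells in the microglia-like cells with few *Spp1* UMIs was not tested.

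In macrophage-like cells the difference was seen over most cells of the class. After control Ab, 74.2% (67.4 to 80.3%) of 190 thinned cells had 10 or more *Spp1* UMIs, and the median cell had 65. After anti-CD9 Ab, 4.72% (3.60 to 6.08%) of 1207 cells did, and 80.7% had none. The mean among cells with a UMI was 72.8 and 9.67 UMIs, respectively, so that in this class both the share of cells and the amount in a positive cell were lower.

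**Figure D2:**
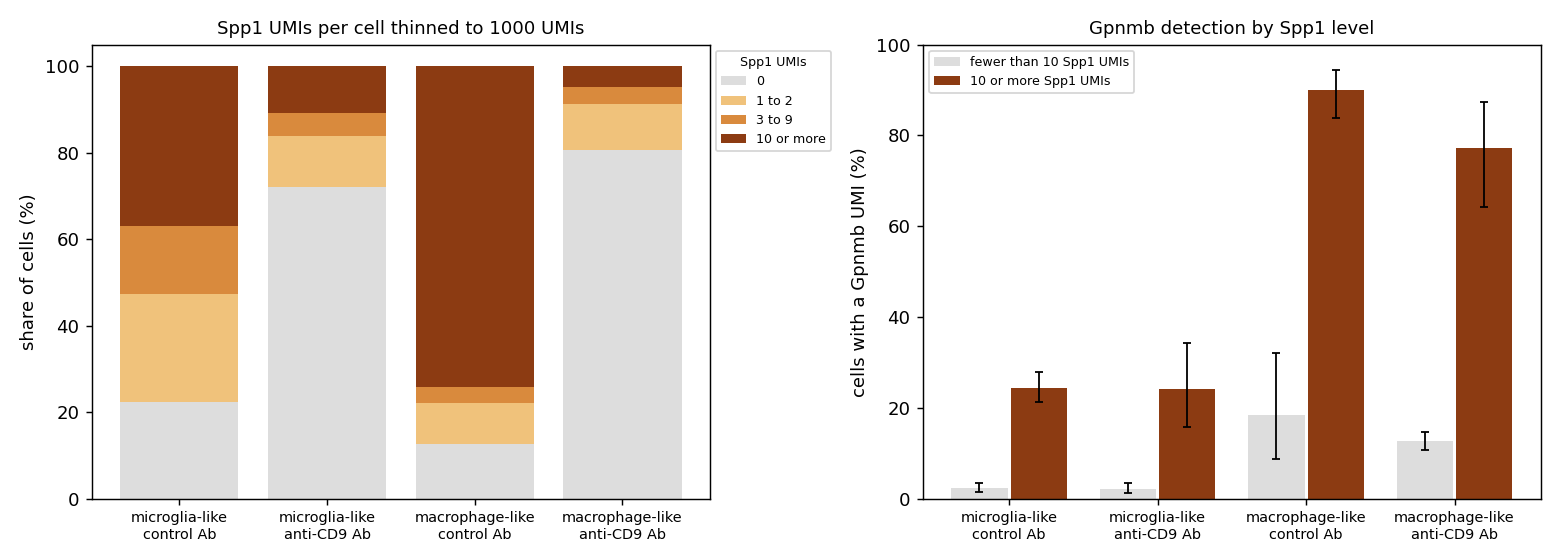
Left, share of cells (%) with 0, 1 to 2, 3 to 9, or 10 or more *Spp1* UMIs after thinning to 1000 UMIs, in microglia-like and macrophage-like cells of each library; right, share of cells (%) with a *Gpnmb* UMI among cells with fewer than 10 (grey) or 10 or more (brown) *Spp1* UMIs, with 95% binomial intervals. The darkest segment covers 74.2% of macrophage-like cells in the control library and 4.72% in the other, and on the right the brown bars stand above the grey ones in each class and library.

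The macrophage-like class was divided again into 7 sub-clusters, and *Spp1* was lower after anti-CD9 Ab in each of them. Sub-cluster 1, led by *Fabp5*, *Gpnmb* and *Syngr1*, had 91008 CPM of *Spp1* after control Ab and 7306 CPM after anti-CD9 Ab (log2 ratio -3.64). It held 34.9% of the macrophage-like cells after control Ab and 21.3% after anti-CD9 Ab. Sub-cluster 3, led by *Nav3* and *Plxdc2*, had 61994 and 174 CPM (-8.47, -8.70 to -8.25). Sub-cluster 0, led by *Saa3* and *Ccl5*, had 14361 and 264 CPM (-5.77), and sub-cluster 5, led by *Ifitm1* and *Ccr2*, had 1540 and 85.2 CPM (-4.18). After control Ab the sub-clusters held between 6 and 67 cells, so that these levels rest on few cells. Sub-clusters 0, 4 and 5 held 10.9%, 5.2% and 3.1% of the class after control Ab. After anti-CD9 Ab they held 27.1%, 13.4% and 10.6%, and each of the other sub-clusters held a smaller share than after control Ab. Sub-cluster 6 was 94.5% predicted doublets, and sub-cluster 3 carried the microglia marker *P2ry12* among its leading genes. Over the whole macrophage-like class, the summed level of the 12 microglia markers was 3705 CPM after control Ab and 880 CPM after anti-CD9 Ab, all 12 lower after anti-CD9 Ab and none at 0. The part of these transcripts in the macrophage *Spp1* values was not tested.

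*Spp1* was also counted in lymphoid and dendritic classes, of which activated T cells and dendritic cells are known to be able to make osteopontin. T cell-like cells had 1512 CPM after control Ab and 154 CPM after anti-CD9 Ab (log2 ratio -3.29, -3.43 to -3.15). B cell-like cells had 14039 and 523 CPM, dendritic cell-like cells 3946 and 202 CPM, and plasma cell-like cells 1919 and 194 CPM. The B cell-like level after control Ab rests on 32 cells, and 30.8% of that class over both libraries were predicted doublets. After thinning, 62.6% of T cell-like cells after control Ab (79.9% unthinned, median depth 1555 UMIs) had a *Spp1* UMI, and 13.5% after anti-CD9 Ab (26.7% unthinned, median depth 2314 UMIs). The corresponding shares in microglia-like cells were 77.7% (90.7% unthinned, median depth 3360 UMIs) and 27.9% (43.8% unthinned, median depth 3443 UMIs). In oligodendrocyte-like cells, which are not expected to make *Spp1* in quantity, they were 70.5% (83.0% unthinned, median depth 1019 UMIs) and 35.5% (38.1% unthinned, median depth 825 UMIs). The share of cells with at least 1 UMI therefore separates these classes poorly. Cells with 10 or more UMIs were counted in microglia-like and macrophage-like cells only. 

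The level of *Spp1* was also set against other transcripts of microglia and macrophages. Per 100 UMIs of *Apoe*, *C1qa*, *C1qb*, *Ctss* and *Cst3* summed, *Spp1* had 53.9 UMIs in microglia-like cells after control Ab. In the same library it had 55.6 in T cell-like, 51.8 in neutrophil-like, 54.2 in plasma cell-like and 58.7 in astrocyte-like cells, but 28.8 in dendritic cell-like, 85.7 in B cell-like, 126 in cluster 6, 146 in cluster 22 and 152 in macrophage-like cells. After anti-CD9 Ab the ratio was 16.9 in microglia-like, 9.73 in T cell-like, 7.43 in macrophage-like, 1.79 in dendritic cell-like and 27.4 in neutrophil-like cells. Per 100 UMIs of *C1qa*, *C1qb* and *C1qc*, the values were 115 in microglia-like, 157 in T cell-like and 750 in macrophage-like cells after control Ab, and 32.8, 36.5 and 36.1 after anti-CD9 Ab. They were 134 and 108 in neutrophil-like, 161 and 71.0 in plasma cell-like, and 193 and 26.6 in dendritic cell-like cells. How close the classes lay therefore depended on the reference genes, and the part of free RNA in these values was not tested. Barcodes left out for a mitochondrial share above 2% had 17337 CPM of *Spp1* after control Ab and 1691 CPM after anti-CD9 Ab, close to the 17680 and 1911 CPM over all kept cells.

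*Gpnmb* was lower after anti-CD9 Ab in microglia-like and macrophage-like cells, as *Spp1* was. In microglia-like cells it stood at 344 CPM (333 to 356, 3776 UMIs) after control Ab and 82.2 CPM (72.6 to 92.8, 262 UMIs) after anti-CD9 Ab, with a log2 ratio of -2.07 (-2.25 to -1.89). This ratio was -1.01 without integration and -1.31 as a mean over cells, and lay between -2.22 and -1.89 under the 6 other alternatives. In macrophage-like cells *Gpnmb* stood at 2853 CPM (2760 to 2950) and 357 CPM (342 to 371), a log2 ratio of -3.00 (-3.08 to -2.92). The macrophage-like level remained above the microglia-like level in both libraries, unlike that of *Spp1*. T cell-like cells had 11.5 and 8.19 CPM, and the interval of their log2 ratio (-1.19 to 0.21) included 0. The ratio was also below 0 in plasma cell-like (105 and 32 UMIs, -1.64, -2.21 to -1.07) and B cell-like cells (34 and 7 UMIs, -3.20, -4.38 to -2.03). These classes had only 153 and 32 cells after control Ab, and their *Gpnmb* UMIs lay in a small part of those cells. Predicted doublets made up 20.1% of plasma cell-like and 30.8% of B cell-like cells over both libraries. The intervals do not cover this, and the part of doublets in these ratios was not tested. In dendritic cell-like cells the *Gpnmb* ratio was -0.68 (-1.30 to -0.06), and the interval included 0 in the other named classes. The log2 ratio over all kept cells was -1.02 (-1.08 to -0.96), a smaller difference than in microglia-like or macrophage-like cells.

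2 unnamed clusters that were almost confined to the anti-CD9 library carried *Gpnmb*. Cluster 8 (3 cells after control Ab and 884 after anti-CD9 Ab), led by *Gdf15* and *Hilpda* and with 4 of 12 neutrophil markers, had 423 CPM of *Gpnmb* (382 to 467, 389 UMIs) after anti-CD9 Ab, above the macrophage-like level of that library. Cluster 6 (29 and 1185 cells) was led by *Cxcl13*, *Hmgb2* and *Stmn1*, and no marker of any class was up in it by the limits for naming. It had 74.2 CPM (4 UMIs, 20.2 to 190) and 202 CPM (178 to 228) of *Gpnmb*. In cluster 22, the cluster with the highest *Spp1*, *Gpnmb* was 405 and 478 CPM (log2 ratio 0.24, -0.34 to 0.82), so that the ratios of the 2 genes were unlike there.

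Among single cells, a *Gpnmb* UMI was found in a larger share of the cells with 10 or more *Spp1* UMIs than of the rest. After control Ab, 24.5% (21.3 to 27.9%) of the microglia-like cells with 10 or more *Spp1* UMIs had a *Gpnmb* UMI, against 2.39% (1.59 to 3.43%) of the rest. After anti-CD9 Ab the shares were 24.2% (15.8 to 34.3%, 91 cells) and 2.13% (1.22 to 3.44%, 750 cells). The intervals of the 2 libraries overlapped once cells were divided by *Spp1*, and the high *Spp1* cells were a smaller part of the class after anti-CD9 Ab. In macrophage-like cells the shares were 90.1% and 18.4% after control Ab, and 77.2% and 12.7% after anti-CD9 Ab. Since high *Spp1* cells were few there, 146 of the macrophage-like cells with a *Gpnmb* UMI after anti-CD9 Ab had fewer than 10 *Spp1* UMIs and 44 had 10 or more. As a background, 1.13% of thinned T cell-like cells after control Ab and 0.754% after anti-CD9 Ab had a *Gpnmb* UMI.

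*Cd44* was highest in another class than *Itgav* and *Itgb3*. For *Itgav* and *Itgb3* the interval of the highest class overlapped that of the next class in both libraries, so that their highest class was not settled. Among classes with at least 20 cells, *Cd44* was highest in neutrophil-like cells of both libraries, at 769 CPM (54 UMIs) after control Ab and 1278 CPM after anti-CD9 Ab (log2 ratio 0.73, 0.35 to 1.12). T cell-like cells came next among the named classes of the control library (269 and 365 CPM, log2 ratio 0.44, 0.32 to 0.56). It was found in macrophage-like cells at 143 (122 to 166) and 297 CPM (284 to 311), with a log2 ratio of 1.06 (0.83 to 1.28). *Cd44* was therefore higher after anti-CD9 Ab in each of these 3 named classes. Microglia-like cells were near the lower end of the order, at 41.9 CPM (38.1 to 45.9) after control Ab and 101 CPM (90.6 to 113) after anti-CD9 Ab (1.28, 1.07 to 1.48). This ratio was under 2-fold in 4 of 8 alternatives: 0.69 with a mitochondrial limit of 5%, 0.42 without integration, 0.95 at 20 principal components and 0.96 with classes from marker UMIs. The ratio was larger in oligodendrocyte-like cells, at 39.0 and 252 CPM, but there it rested on 22 and 28 UMIs.

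Neutrophil transcripts moved with *Cd44* in microglia-like cells. The summed level of the 12 neutrophil markers in microglia-like cells was 656 CPM after control Ab and 1287 CPM after anti-CD9 Ab, 11 of them higher after anti-CD9 Ab and none at 0. The sums were 398 and 1012 CPM in macrophage-like cells, and 221 and 1013 CPM for T cell-like cells. Of microglia-like cells thinned to 1000 UMIs, 2.84% (2.14 to 3.70%; 13.6% unthinned) after control Ab and 7.37% (5.70 to 9.35%; 21.6% unthinned) after anti-CD9 Ab had a *Cd44* UMI. The part of neutrophil RNA in these *Cd44* values was not tested. After anti-CD9 Ab, a *Cd44* UMI was found in 7.87% (6.04 to 10.0%) of the microglia-like cells with fewer than 10 *Spp1* UMIs and in 3 of 91 cells with 10 or more. After control Ab it was found in 2.21% and 3.91% (2.59 to 5.64%) of these cells.

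**Figure D3:**
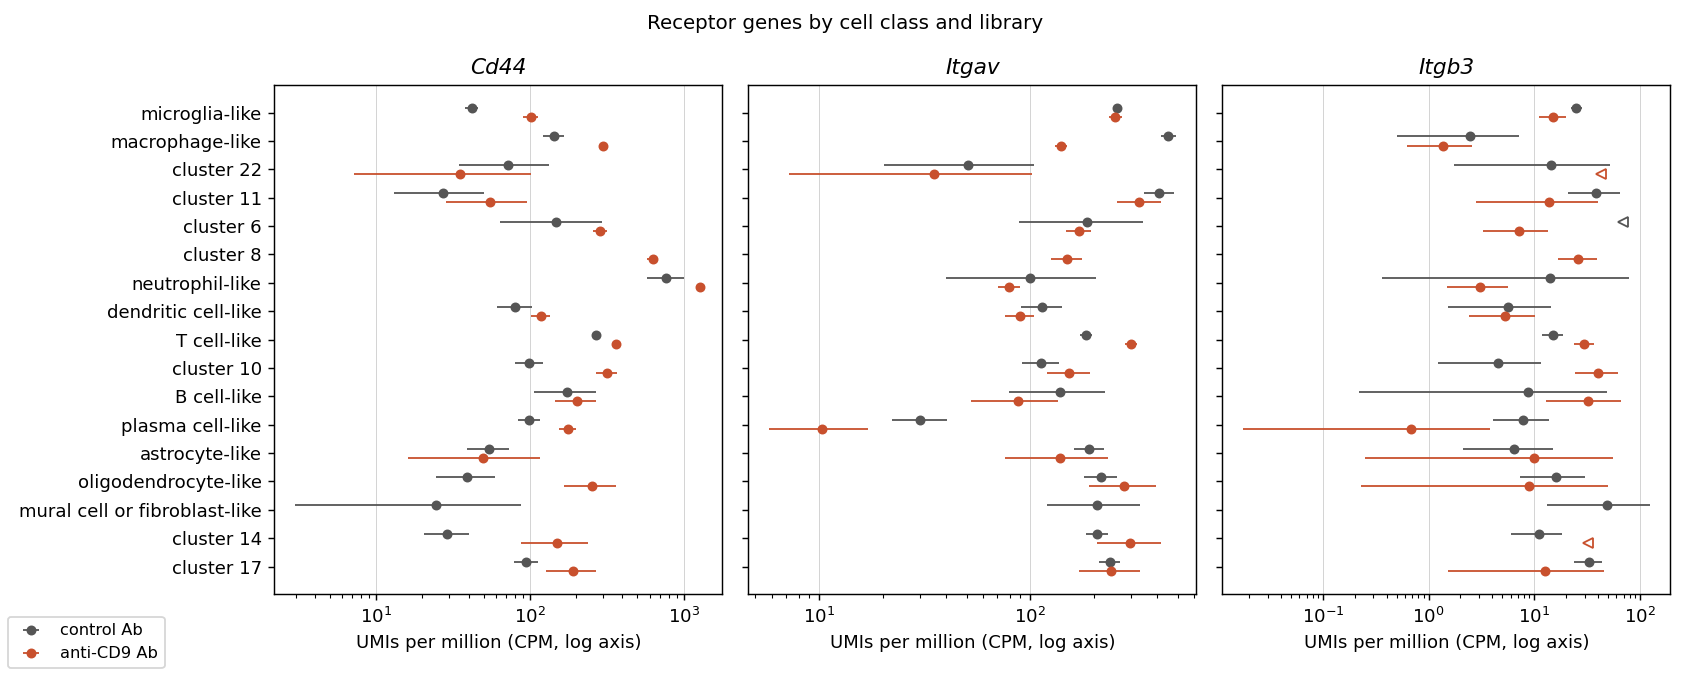
CPM (log axis) of *Cd44*, *Itgav* and *Itgb3* in each cell class or cluster, for libraries with at least 20 of its cells, after control Ab in grey and anti-CD9 Ab in orange; bars are 95% Poisson intervals, and an open triangle marks the upper limit where no UMI was counted. The *Cd44* points of neutrophil-like cells (769 and 1278 CPM) stand at the right, *Itgav* is apart between libraries in macrophage-like cells (452 and 141 CPM), and the *Itgb3* points lie at 48.8 CPM or less, with upper limits of up to 125 CPM (mural cell or fibroblast-like).

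*Itgav*, the αv integrin chain, was nearly level between the libraries in microglia-like cells. It stood at 259 CPM (250 to 269) after control Ab and 253 CPM (236 to 271) after anti-CD9 Ab, with a log2 ratio of -0.03 (-0.15 to 0.08), which leaves room for a difference within that interval. In macrophage-like cells it was 452 CPM (415 to 492) and 141 CPM (132 to 150), a log2 ratio of -1.69 (-1.84 to -1.53). In T cell-like cells it was higher after anti-CD9 Ab, at 183 and 301 CPM (0.71, 0.58 to 0.85). After control Ab the macrophage-like level was the highest, with an interval that overlapped that of the unnamed cluster 11 (408 CPM, 345 to 479). After anti-CD9 Ab it was at place 10 of 16 classes with at least 20 cells. Cluster 11 (329 CPM), T cell-like, oligodendrocyte-like and microglia-like cells and several other numbered clusters then stood above it. In macrophage-like cells after control Ab, *Itgav* was found in 39.7% (31.6 to 48.3%) of the cells with 10 or more *Spp1* UMIs and in 10.2% (3.40 to 22.2%) of the rest. After anti-CD9 Ab these shares were 29.8% (18.4 to 43.4%) and 10.8% (9.05 to 12.7%). In microglia-like cells after control Ab they were 20.3% and 23.6%, with overlapping intervals.

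*Itgb3*, the β3 integrin chain, was the least counted of the 5 genes, with 464 UMIs over all kept cells after control Ab and 228 after anti-CD9 Ab. Microglia-like cells had 25.1 CPM (22.2 to 28.2, 275 UMIs) and 15.1 CPM (11.1 to 19.97, 48 UMIs), a log2 ratio of -0.74 (-1.18 to -0.29). T cell-like cells had 15.0 CPM (73 UMIs) and 29.9 CPM (84 UMIs), a log2 ratio of 1.00 (0.55 to 1.45). Macrophage-like cells had 3 and 9 UMIs, or 2.45 CPM (0.51 to 7.16) and 1.36 CPM (0.62 to 2.59), so that this class was far below microglia-like cells in both libraries. Cluster 10, which carried genes of CD8 T cells and NK cells, had 4 and 20 UMIs (4.52 and 40.2 CPM). It was the highest class after anti-CD9 Ab, with an interval (24.6 to 62.1 CPM) that overlapped those of B cell-like and T cell-like cells. After control Ab the highest were mural cell or fibroblast-like cells (48.8 CPM, 13.3 to 125, 4 UMIs). Their interval overlapped that of cluster 11 (38.3 CPM, 20.9 to 64.3). Because β3 pairs with the αIIb chain on platelets, the 7 platelet markers were counted too, at 10.3 and 8.16 CPM summed in microglia-like cells. *Ppbp*, *Gp1bb* and *Gp5* were at 0 in both libraries, and *Itga2b* (αIIb) had 2 and 4 UMIs. *Gp9* had 60 and 5 UMIs, *Treml1* 34 and 9, and *Tubb1* 17 and 8. Cells with 2 or more platelet markers numbered 0 and 1 among microglia-like cells, and they held no *Itgb3* UMI.

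Few cells had a UMI of both chains of the αvβ3 receptor, and few had a UMI of *Itgb3* at all. Without thinning, *Itgb3* was found in 12.2% of microglia-like cells after control Ab and 5.23% after anti-CD9 Ab, and *Itgav* in 58.6% and 51.2%. A UMI of each was found in 8.73% (7.49 to 10.1%) of the 1891 microglia-like cells after control Ab and 2.79% (1.80 to 4.12%) of the 860 after anti-CD9 Ab. After thinning to 1000 UMIs, this held for 11 of 1864 and 2 of 841 cells, with intervals that overlapped (0.295 to 1.05% and 0.0288 to 0.856%). In macrophage-like cells 2 of 192 and 5 of 1231 unthinned cells had both.

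**Figure D4:**
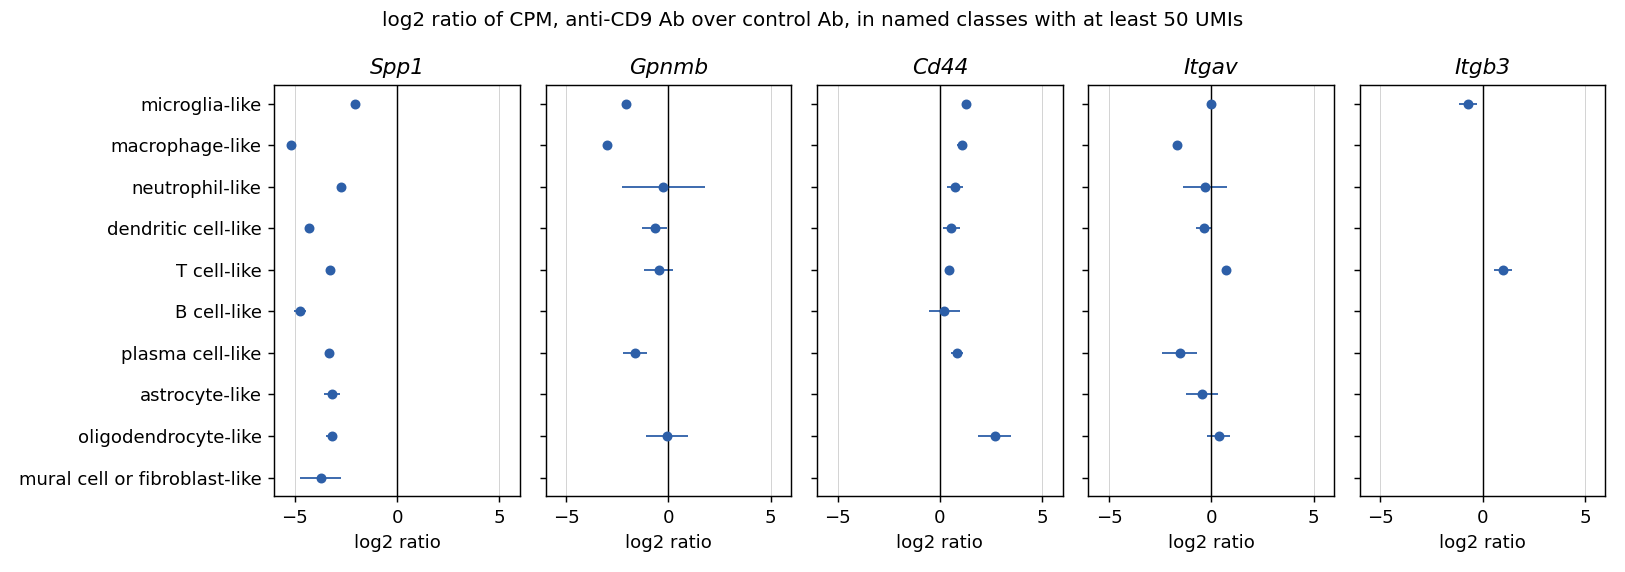
Log2 ratio of CPM, anti-CD9 Ab over control Ab, of each gene in the named classes where it had at least 50 UMIs over the 2 libraries; bars are 95% intervals of counting error and the vertical line is 0. All *Spp1* points lie below 0 (macrophage-like -5.20, microglia-like -2.05), *Cd44* is above 0 in microglia-like (1.28) and macrophage-like cells (1.06), and *Itgb3* is on opposite sides in microglia-like (-0.74) and T cell-like cells (1.00).

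Against all genes, 2 of the 5 members were at least 2-fold lower after anti-CD9 Ab in microglia-like cells (*Spp1* and *Gpnmb*), beside 4.34% of 11277 genes tested (at least 50 UMIs in the class). *Cd44* was at least 2-fold higher, as were 3.81% of all genes. Without integration *Spp1* was not past 2-fold (-0.59), and *Cd44* was not past it in the 4 alternatives named above. In macrophage-like cells *Itgb3* had too few UMIs, and 3 of the 4 others were at least 2-fold lower (*Spp1*, *Gpnmb* and *Itgav*), beside 6.27% of 8992 genes. *Cd44* was again at least 2-fold higher, beside 8.33%. The median log2 ratio of all genes was 0.03 in microglia-like and -0.01 in macrophage-like cells. Ordered from the lowest ratio, *Spp1* was at place 125 and *Gpnmb* at place 120 in microglia-like cells, and at places 6 and 47 in macrophage-like cells.

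The classes that held the UMIs of each gene differed between the libraries along with the number of cells. Microglia-like cells held 67.0% of the *Spp1* UMIs of kept cells after control Ab and 47.8% after anti-CD9 Ab, and macrophage-like cells 18.8% and 28.1%. For *Gpnmb* the microglial share was 47.8% (46.7 to 48.9%) and 7.40% (6.56 to 8.31%), and the macrophage share 44.3% and 66.6%. *Cd44* UMIs came mainly from T cell-like cells after control Ab (51.0%) and from neutrophil-like cells after anti-CD9 Ab (45.2%). For *Itgb3* the microglial share was 59.3% and 21.1%, and the T cell share 15.7% and 36.8%. Over all kept cells, *Spp1* stood at 17680 and 1911 CPM (9.25-fold lower after anti-CD9 Ab) and *Cd44* at 103 and 403 CPM (log2 ratio 1.96), values in which the make-up of the cells and the level within a class are not separated.

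**Figure D5:**
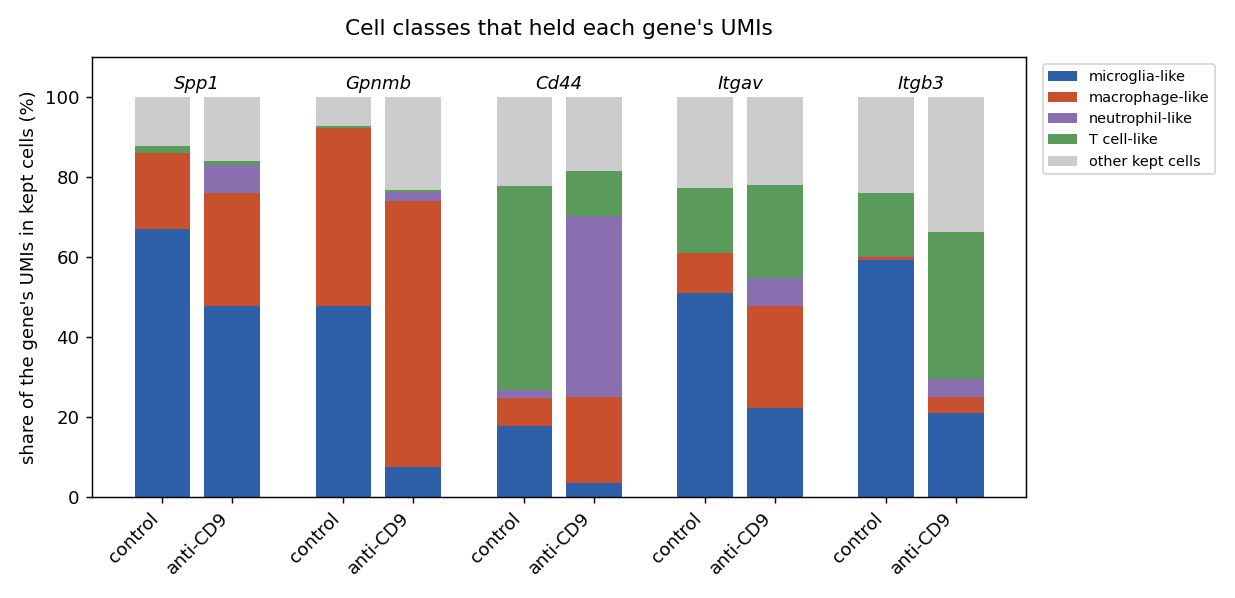
Share (%) of each gene's UMIs in kept cells that lay in microglia-like, macrophage-like, neutrophil-like, T cell-like and all other cells, for each library. The microglial part of *Gpnmb* is 47.8% after control Ab and 7.40% after anti-CD9 Ab, and the neutrophil part of *Cd44* is 45.2% after anti-CD9 Ab.

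The other osteopontin receptors measured in microglia-like cells were within 2-fold. Of 8 listed integrin genes, 5 had at least 50 UMIs there, and 2 of these were lower and 3 higher, beside 46.9% of all genes lower. The median log2 ratio of the 5 was 0.05, beside 0.03 for all genes. *Itgb5*, another β chain that pairs with αv, was the most counted of the 5 at 969 and 1037 CPM (0.10, 0.04 to 0.15). *Itgb1* was at 151 and 156 CPM (0.05, -0.09 to 0.19), and *Itga5*, its partner in the fibronectin receptor, at 23.9 and 31.7 CPM (0.41). *Itga4* (-0.79, -1.11 to -0.46) and *Itga9* (-0.75, -0.97 to -0.53), chains that bind a site of osteopontin exposed by thrombin, were lower after anti-CD9 Ab. In macrophage-like cells both of these were higher (0.51 and 0.85), as was *Itga5* (1.42, 0.95 to 1.90), while *Itgb5* was lower (-0.66, -0.81 to -0.52) and *Itgb1* stood at 0.18 (-0.03 to 0.39). The median there was 0.51 over 5 genes. *Itgb6*, *Itgb8* and *Itga8* had under 50 UMIs in both classes.

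Genes of other ligands of these receptors had a higher median in macrophage-like than in microglia-like cells. In macrophage-like cells all 4 measured genes of 13 were higher after anti-CD9 Ab (median 2.03), beside 4455 of all 8992 genes. The 4 were thrombospondin-1 (*Thbs1*, 26.1 and 201 CPM), versican (*Vcan*, 10.6 and 58.0 CPM), fibronectin (*Fn1*, 201 and 609 CPM) and serglycin (*Srgn*, 840 and 1474 CPM). *Spp1* was thus lower in a class where these ligands were higher. The make-up of this class also differed between the libraries. *Vcan* was a leading gene of macrophage sub-cluster 4, which held 5.2% of the class after control Ab and 13.4% after anti-CD9 Ab. The ligand genes were not counted within sub-clusters, so that make-up and level are not separated in their ratios. In microglia-like cells 3 of 6 measured ligand genes were higher and 3 lower (median 0.07), beside 46.9% of all genes lower. The lower ones were periostin (*Postn*, 199 and 5 UMIs, log2 ratio -3.53), *Mfge8* (87 and 5 UMIs, -2.34) and *Fn1* (-0.42). The higher ones were *Thbs1* (75 and 79 UMIs, 1.86), *Srgn* (0.77) and *Edil3* (42 and 18 UMIs, 0.56, -0.24 to 1.36). Of the 3 genes measured in both classes, *Fn1* had opposite signs, and *Srgn* and *Thbs1* were higher in both.

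Among enzymes that cut or cross-link osteopontin, 5 of 6 measured genes were lower after anti-CD9 Ab in microglia-like cells (median -0.60) and 3 of 5 in macrophage-like cells (median -1.66), beside 46.9% and 50.5% of all genes lower in these classes. Urokinase (*Plau*), which activates plasminogen, was at 77.0 and 23.5 CPM in microglia-like and 158 and 13.3 CPM in macrophage-like cells (log2 ratios -1.71 and -3.56). The lysosomal proteases *Ctsd* (-0.86 and -1.81) and *Ctsb* (-0.69 and -1.66) were lower in both classes. Transglutaminase 2 (*Tgm2*), which cross-links osteopontin, was higher in both, at 17.1 and 50.8 CPM in microglia-like cells (1.57) and 38.4 and 171 CPM in macrophage-like cells (2.15). *Mmp3* and *Mmp7* had no UMI in either class.

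Genes around GPNMB had a median near that of all genes in microglia-like cells, with a log2 ratio of -0.02 over 9 of 11 genes and none past 2-fold. *Mitf*, of the transcription factor family whose motifs were searched above, was at 713 and 572 CPM in microglia-like cells (-0.32, -0.39 to -0.24) and 500 and 320 CPM in macrophage-like cells (-0.64, -0.77 to -0.51). The sheddase genes *Adam10* and *Adam17* were at 0.35 and 0.30 in microglia-like cells. In macrophage-like cells *Sdc4*, a syndecan to which GPNMB binds, was at 41.6 and 406 CPM (3.28, 2.89 to 3.68), and *Tfeb* at -0.66. The median there was -0.16 over 10 genes, of which 6 were lower, beside 50.5% of all genes.

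Adaptors and kinases of integrins and CD44 had medians of 0.17 over 12 genes in microglia-like cells and 0.40 over 11 genes in macrophage-like cells. Vinculin (*Vcl*) was the lowest in microglia-like cells (-1.01, -1.56 to -0.46). The kinase gene *Syk* was the highest with at least 200 UMIs in macrophage-like cells, at 108 and 228 CPM (1.08, 0.82 to 1.34). Of the osteoclast-associated genes, which are listed because *Spp1*, *Gpnmb* and *Itgb3* are all osteoclast genes, 3 of 4 were lower in microglia-like and 4 of 5 in macrophage-like cells (46.9% and 50.5% of all genes). *Atp6v0d2*, a proton pump subunit, was at 26.0 and 5.96 CPM in microglia-like cells (-2.12) and 135 and 5.60 CPM in macrophage-like cells (-4.59). *Tnfrsf11a*, the receptor RANK, was at 0.00 (-0.12 to 0.13) and -0.38 in these classes. The relatives of *Spp1* in the SIBLING family of matrix proteins were not counted beside it: *Ibsp*, *Dspp* and *Mepe* had 0 UMIs in kept cells and *Dmp1* had 5 after control Ab and 0 after anti-CD9 Ab.

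The genes most like each member over 32 points (a class in a library, with at least 20 cells) were found by Pearson correlation of log2(CPM + 10) among 11835 genes, as a description. The points share 2 libraries, and free RNA and class size enter all of them. *Spp1* was most like *Ctsl* (r = 0.919), *Timp2* (0.916), *Lpl* (0.904), *Trem2* (0.900) and *Syngr1* (0.895). *Gpnmb* was most like *Ctsb* (0.844), *Psap* (0.833), *Cd68* (0.833), *Hpse* (0.827) and *Lamp1* (0.813), and its r with *Spp1* was 0.679. The closest to *Cd44* were *Srgn* (0.921), *2310001H17Rik* (0.913) and *Pim1* (0.893), and the closest to *Itgav* were *Ski* (0.849), *Tbc1d9b* (0.837) and *Ppm1h* (0.833). For *Itgb3* the highest were *Slc35d2* (0.691), *Cbwd1* (0.686) and *Tec* (0.680), below those of the other members. *Cd44* and *Spp1* had r = -0.405.

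The *Spp1* ratio in microglia-like cells depended on integration of the libraries before clustering. Without it, the log2 ratio was -0.59 for *Spp1* (-2.05 with integration), -1.01 for *Gpnmb* (-2.07) and 0.42 for *Cd44* (1.28) in 2041 and 245 cells. A further cluster of 44 cells after control Ab and 600 after anti-CD9 Ab, led by *Ccl12* and *Cxcl13*, then carried 4 of 12 microglia markers and remained outside the class. In the setting called classes from marker UMIs, each cell was classed without clusters, by how many different markers of a class had a UMI in it. There the log2 ratio of *Spp1* was -1.97 (2456 and 974 cells). In macrophage-like cells the ratio of *Spp1* stayed between -5.31 and -5.06 over the 8 alternatives.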

How the data were processed

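The deposited matrices held counts of UMIs per gene and barcode, which the authors made from 10x Genomics Single Cell 3′ v3.1 libraries. The submitters' processing notes name Cell Ranger 8.0.0 and GRCm39, whereas the study's methods give another version and build, so the annotation behind the counts was not settled here and no gene coordinates were joined to the counts. Strand and multi-mapping rules of the counting were not given in the sources used here. The methods state that cells of several mice were pooled for the thalamus but do not repeat this for the antibody groups.

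Groups came from the sample labels. Cells with 200 to 7500 genes and no more than 2% mitochondrial counts were kept (61.0% and 60.4% of barcodes, median 1880 UMIs after control Ab and 1419 after anti-CD9 Ab). Libraries were integrated by anchors in Seurat 5.3.0 (R 4.3.3; 2000 variable genes, 30 principal components, resolution 0.8). The members, the pathway lists and known microglial state genes were left out of the variable genes. A cluster was named when at least 50% and at least 3 of the markers of a class were up (log2 difference of at least 1 over the other cells, pseudocount of 20 CPM, detected in at least 10% of its cells), when no more than 50% of its cells were predicted doublets, and when no other class had more markers among its 10 leading genes. These naming limits were set after the clusters had been seen. Doublets were scored against simulated doublets (2 per barcode) and kept (10.8% and 12.8% of kept cells), and leaving them out was an alternative. Macrophage-like cells were clustered again alone (20 principal components, resolution 0.5).

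UMIs were summed over the cells of a class and scaled to that class's total (CPM). Shares of cells were taken after thinning each cell to 1000 UMIs, and shallower cells were left out (27 and 19 microglia-like, 338 and 68 T cell-like cells, after control Ab and after anti-CD9 Ab). List medians and the share of genes past 2-fold used genes with at least 50 UMIs in a class. The genes named from a list other than the receptors were among the 2 highest and 2 lowest log2 ratios with at least 200 UMIs. One exception was the list of other ligands in microglia-like cells, where every measured gene was named. The others were *Mmp3*, *Mmp7* and the SIBLING relatives, which were named because few or no UMIs were counted. PCR duplicates are collapsed by UMIs, and intervals cover counting error only. The sums and likeness ranks were tested on simulated counts. Promoters came from RefSeq on GRCm38.p6. TMM factors came from edgeR 4.0.16 as an alternative scaling, with no test. Python 3.11.15, NumPy 2.4.6 and SciPy 1.17.1 were used. The members and gene lists were chosen with earlier results of these data known. Protein sequences were not used here.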

Additional observations from a re-analysis of the deposited data

Results flagged for a closer look

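Among the named cell classes, 2 of the 5 genes lay on opposite sides of 0 in different classes, with intervals of counting error that excluded 0 and at least 50 UMIs in each class, which is what singled them out. *Itgav* had a log2 ratio of -1.69 in macrophage-like cells and 0.71 in T cell-like cells, a difference of -2.40. *Itgb3* had a log2 ratio of -0.74 in microglia-like cells and 1.00 in T cell-like cells, a difference of -1.73, from 323 and 157 UMIs over the 2 libraries. After thinning, *Itgb3* was found in 1.82% (1.33 to 2.43%) of T cell-like cells after control Ab and 3.23% (2.19 to 4.58%) after anti-CD9 Ab, with overlapping intervals. The shares for *Itgav* were 14.8% (13.4 to 16.2%) and 22.1% (19.5 to 24.9%), which did not overlap. Ratios of T cell-like cells were not recomputed under the alternatives below. The differences between classes were not tested, because each antibody had 1 library.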

How the results depend on the processing

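Each of the 7 ratios kept its sign under the 8 alternatives (56 of 56 values), and 30 of the 56 lay inside the counting interval of the reported value. The interval of *Itgav* (-0.15 to 0.08) included 0, so its sign was not settled to begin with. The naming limit of 33% left the macrophage-like class at 192 and 1231 cells, so values there could not move. TMM scaling shifted all ratios of a class by the same amount. In microglia-like cells, *Spp1* was at -2.13 with a mitochondrial limit of 5%, -1.94 without predicted doublets, -0.59 without integration, -1.995 at 20 principal components, -1.97 with classes from marker UMIs per cell, -2.01 with a naming limit of 33% of markers (added after seeing the data), -2.09 with TMM scaling and -1.87 as a mean over cells. *Gpnmb* was at -1.01 without integration and -1.31 as a mean over cells. *Cd44* was at 0.69 with the 5% limit, 1.03 without doublets, 0.42 without integration, 0.95 at 20 components, 0.96 with classes from marker UMIs and 1.76 as a mean over cells. *Itgav* was at -0.15 with the 5% limit, -0.16 without integration and -0.16 as a mean over cells. In macrophage-like cells, *Spp1* was at -5.31 with the 5% limit, -5.16 without integration, -5.09 with classes from marker UMIs and -5.06 as a mean over cells, and *Gpnmb* at -2.87, -2.89 with classes from marker UMIs and -3.08 as a mean over cells. The share of genes at least 2-fold lower was 2.70% of genes with at least 200 UMIs and 7.41% with no minimum beyond 1 UMI in each library in microglia-like cells, and 4.15% and 18.4% in macrophage-like cells. The cause of these shifts was not tested. No paired analysis was possible because there was 1 library per antibody. At this depth, *Itgb3* could not be compared in macrophage-like cells.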
